A study of Mus musculus with 21 samples.

Results

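The genes described here encode the subunits of the proteasome and its activators. They are the genes of the count table whose symbol is Psma, Psmb, Psmc or Psmd followed by a number, together with Psme1 to Psme4, with at least 10 counts in total. Of 43 such rows, 42 met the count minimum, among 24421 gene symbols in the table. The remaining row, Psmb11, the thymus-specific catalytic subunit, had too few counts. All 42 genes passed the filter on low counts. They comprise 39 constitutive and regulatory genes and the 3 immunoproteasome catalytic genes Psmb8, Psmb9 and Psmb10.

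RNA from whole mouse liver was sequenced in 21 libraries, 7 in each of 3 groups. The ERK1 KO group lacked ERK1 in all cells and carried floxed Erk2 alleles without Cre. The ERK2 KO group lacked ERK2 in hepatocytes, through a tamoxifen-dependent Cre driven by the albumin promoter, and the double KO group combined both losses. Every group received 3 mg of tamoxifen once under the skin, and livers were taken 3 weeks later. Cre was present only where ERK2 was lost, so the 2 cannot be told apart, and no mouse without a knockout was analysed here. No label says which animal a library came from, so the p-values reflect the spread between libraries, part of which may be technical.

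The proteasome degrades proteins that carry ubiquitin chains. Its 20S core is a barrel of alpha rings, which gate the entrance, and beta rings, of which Psmb5, Psmb6 and Psmb7 encode the proteolytic subunits. In cells exposed to interferon gamma, and constitutively in many immune cells, Psmb8, Psmb9 and Psmb10 replace Psmb5, Psmb6 and Psmb7 to form the immunoproteasome, which favours peptides for antigen presentation. The 19S cap, built from Psmc ATPases and Psmd subunits, binds ubiquitinated proteins, unfolds them and feeds them into the core. NRF1, encoded by Nfe2l1, raises transcription of proteasome genes when proteasome activity is short, and NRF2, encoded by Nfe2l2, is the main regulator of antioxidant and detoxification genes.

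Library totals ranged from 37703680 to 45460470 counts. Mapk3, which encodes ERK1, went against the label in 4 libraries. In CPM, counts scaled to the deposited library total, Mapk3 reached 39.9 in the library labelled ERK1 KO 2 and 36.5 in that labelled double KO 7. Those labelled ERK2 KO 5 and ERK2 KO 7 had only 9.45 and 10.9 CPM. The remaining library set apart, ERK1 KO 1, had 6.50 CPM of Mapk3, not against its label, but stood apart from its group in overall expression. Results are given for all 21 libraries and for the 16 left without these 5, which comprise 5 ERK1 KO, 5 ERK2 KO and 6 double KO libraries. Mapk3 then ranged from 8.75 to 12.2 CPM in ERK1 KO, from 32.9 to 39.8 CPM in ERK2 KO and from 5.18 to 8.03 CPM in double KO. The 6.50 CPM of ERK1 KO 1 lay below this ERK1 KO range and within the double KO range. Its hepatocyte marker genes summed to 31090 CPM. That sum also lay within the double KO range of the 16 (23550 to 34000) and below the ERK1 KO range (85300 to 115000). Whether its label is right was not tested. ERK1 KO 1 was set apart on its expression, so counts that keep it (17 libraries) are given beside the main counts.

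The promoters of 3 genes show the sequence context of the genes on which the results turn: Psmb5, the constitutive catalytic gene with the largest difference, Psmb8, its immunoproteasome counterpart, and Psmd8, the subunit with the largest difference among those called. Each runs 5′ to 3′ over 300 bases, from 250 before to 50 after the RefSeq start site (GRCm38.p6). Psmb5 lies at chr14:54617946-54618245 on the minus strand, Psmb8 at chr17:34197945-34198244 on the plus strand and Psmd8 at chr7:29180624-29180923 on the minus strand. Capitals mark a match to the antioxidant response element core TGACNNNGC in Psmb5 and to the gamma-activated sequence TTCNNNGAA in Psmb8.
Psmb5: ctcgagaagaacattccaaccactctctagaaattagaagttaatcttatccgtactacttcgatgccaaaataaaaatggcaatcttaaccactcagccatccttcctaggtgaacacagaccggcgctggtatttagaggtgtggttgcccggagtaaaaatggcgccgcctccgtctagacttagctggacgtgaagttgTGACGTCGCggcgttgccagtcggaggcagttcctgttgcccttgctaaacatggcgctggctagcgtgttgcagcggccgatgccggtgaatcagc
Psmb8: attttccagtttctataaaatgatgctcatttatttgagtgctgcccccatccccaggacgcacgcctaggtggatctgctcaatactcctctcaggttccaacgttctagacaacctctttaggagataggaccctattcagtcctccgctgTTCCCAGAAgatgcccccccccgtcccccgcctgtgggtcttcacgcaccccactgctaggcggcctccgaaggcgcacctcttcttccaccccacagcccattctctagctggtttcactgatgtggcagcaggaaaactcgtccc
Psmd8: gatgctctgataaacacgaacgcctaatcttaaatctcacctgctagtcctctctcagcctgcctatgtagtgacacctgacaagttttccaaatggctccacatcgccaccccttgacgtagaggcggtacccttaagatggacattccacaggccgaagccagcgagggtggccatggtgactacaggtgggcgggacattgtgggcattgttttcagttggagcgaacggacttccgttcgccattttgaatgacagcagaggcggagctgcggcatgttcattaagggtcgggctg
Promoters were found for 35 of the 42 genes, 38 promoters in all, and both strands were searched. TGACNNNGC was present in 6 of the 38, or 15.8%, against 12.4% of 32851 promoters of the same length. Psmb6 held it as TGACGGAGC at position -9 and Psmb5 as TGACGTCGC at position -47, counted from the start site. TTCNNNGAA was present in 2 of the 38, or 5.26%, against 8.3% of all. GAAANNGAA, a core of the interferon-stimulated response element, was present in 6, or 15.8%, against 8.56% of all, and none of these 6 was an immunoproteasome catalytic gene. This form was chosen after the result of a longer form, with another A at its end, had been seen, and the longer form stood further above its share in all promoters. A match describes the letters of a window and is no evidence that a factor binds there. No match to the 3 motifs was found in the Psmd8 window.

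Of the 39 constitutive and regulatory proteasome genes, 17 rose in the double knockout against the ERK1 knockout and 22 did not pass the test. Over all 42 genes in the 21 libraries, 17 rose and none fell (adjusted p under 0.05, edgeR quasi-likelihood test with Benjamini-Hochberg adjustment over 14154 genes), while 12.2% of all tested genes rose and 11.8% fell. The members' median log2 fold change was 0.16, against 0.00 over all genes. At an unadjusted p under 0.05, 22 were higher and 1 was lower, beside 20.5% and 19.4% of all genes. DESeq2 called 18 higher and none lower, beside 13.4% and 11.6% of all genes. In the 16 libraries, 23 rose and 1, Psmb8, fell, against 22.9% and 23.0% of all genes, and the members' median was 0.24. All 17 genes called in the 21 libraries were among these 23. In the 17 libraries that keep ERK1 KO 1, 18 rose and none fell, beside 16.6% and 19.1% of all genes. With libraries scaled by their totals rather than by TMM, which moved the median of all genes to 0.10, 27 rose and none fell, against 19.3% of all genes rising and 7.8% falling. Fitting only the ERK1 KO and double KO libraries left 5 higher and none lower, where 5.73% of all genes rose and 5.14% fell. The 17 calls of the 21 libraries became 8 without ERK1 KO 6 (9.68% of all genes higher) or double KO 6 (8.34%), and 9 without double KO 4 (7.69%). They became 10 without ERK1 KO 4 (8.11%) or ERK1 KO 7 (8.44%), and 11 without double KO 1 (11.0%) or double KO 3 (9.68%). The share of all genes fell from 12.2% in these fits too, but by a smaller fraction than the member calls.

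Against the ERK2 knockout in the 21 libraries with TMM scaling, the share of proteasome genes that rose was near that of all genes. It was below that of all genes in the 16 and 17 libraries, and above it with scaling by library totals. In the 21 libraries 10 of 42 rose and 1, Psmb8, fell, which is 23.8% rising beside 24.3% of all genes, with 20.3% of all genes falling. The median was 0.08 for the members and 0.01 for all genes. In the 16 libraries 6 rose and 3 fell (Psmb8, Psme4 and Psmc6), beside 26.1% and 25.1% of all genes. In the 17 libraries 4 rose and 3 fell, beside 23.8% and 25.5%. The 10 higher calls became 5 without double KO 3 (22.8% of all genes higher), ERK2 KO 2 (21.8%), ERK2 KO 5 (22.8%) or ERK2 KO 7 (22.5%), and 6 without double KO 1 (23.7%). With scaling by library totals, which moved the median of all genes from 0.01 to 0.18, 28 rose and none fell, against 37.0% of all genes rising and 10.7% falling. The ERK1 knockout and ERK2 knockout contrasts share the double KO libraries, so they are not independent.

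Between the ERK2 and ERK1 knockouts no proteasome gene passed the test in either library set, while 0.00707% of all genes were called higher and 0.0% lower in the 21 libraries, and 0.309% and 0.414% in the 16. At an unadjusted p under 0.05, 1 was higher in the 21 libraries, where 2.5% of all genes were higher and 7.28% lower. In the 16, 18 of 42 were higher, where 8.67% of all genes were higher and 8.67% lower, and no member was lower in either set. DESeq2 called none in the 21, where it called 0.0524% of all genes higher and 0.064% lower. In the 16 it called 6 members higher, beside 1.76% of all genes higher and 1.97% lower.

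**Figure D1:**
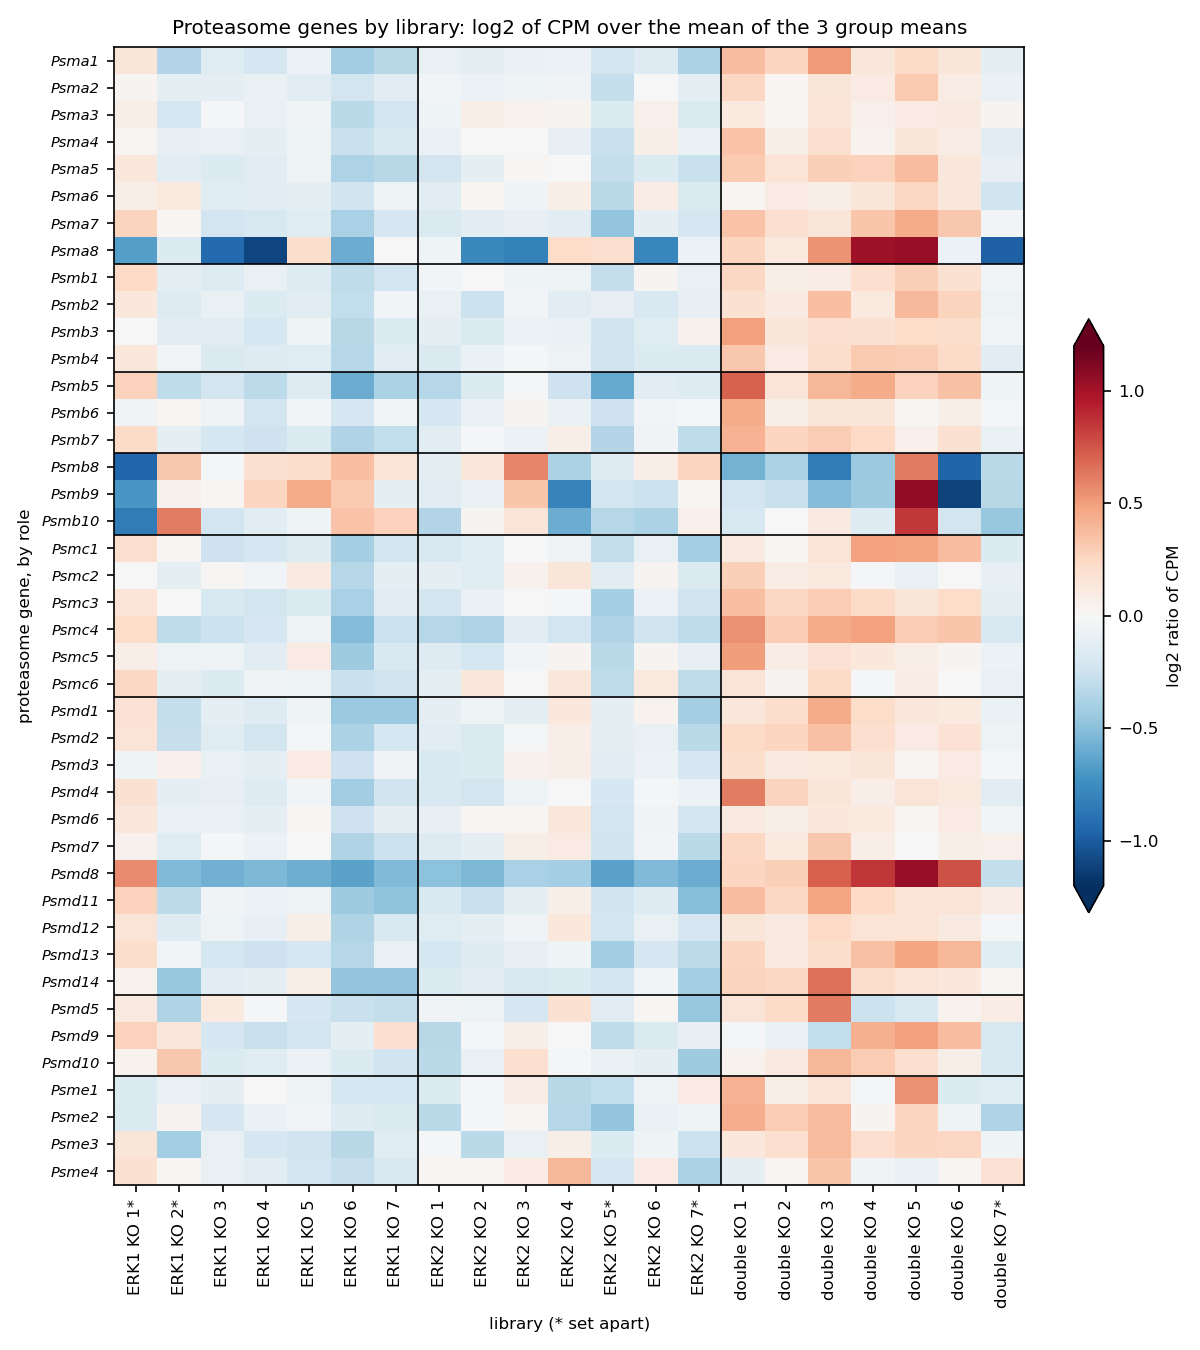
Each row is a proteasome gene, grouped by role, and each column a library; colour gives log2 of its CPM over the mean of the 3 group means (16 libraries), and asterisks mark the 5 libraries set apart. Double KO libraries 1 to 6 are mostly red in the constitutive rows, Psmb8 is blue in all of them but double KO 5, and Psmd8 stands out in red in double KO 3 to 6 and in ERK1 KO 1.

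The map of genes by library shows how these counts arose. On the CPM scale, the 6 double KO libraries of the 16 lay above all 5 ERK1 KO libraries for 30 of the 42 genes, where 18.1% of all genes did so. On TMM-scaled CPM this held for 15, and for 12.3% of all genes. Against the 5 ERK2 KO libraries the count was 20 on CPM, where 24.8% of all genes did so, and 4 on TMM-scaled CPM, where 16.2% did. With all 21 libraries no gene separated double KO from ERK1 KO on CPM, and 4 separated it from ERK2 KO (Psma7, Psmd8, Psmd11 and Psmd14), where 0.417% and 3.96% of all genes did so. On TMM-scaled CPM 1 (Psmb3) and 2 (Psma7 and Psmd8) did so. In the 16, all ERK2 KO libraries lay above all ERK1 KO libraries for 13 genes on TMM-scaled CPM and 4 on CPM. No share of all genes is given for these added counts, so alone they are no result about the members. The median coefficient of variation of the constitutive genes other than the scarce Psma8 was 6.95% in ERK1 KO, 6.71% in ERK2 KO and 8.74% in double KO in the 16 libraries, and 12.4%, 8.57% and 10.9% in all 21. The 16 leave out ERK1 KO 1, which was set apart on its expression.

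In the alpha ring, 3 of 8 genes rose against ERK1 KO (Psma1, Psma5 and Psma7), and the same 3 rose against ERK2 KO. Of the 21 fits that left out 1 library, the call of Psma7 against ERK1 KO was lost in 9. That of Psma5 against ERK2 KO was lost in 14. In the 16 libraries 5 rose against ERK1 KO, and Psma7 alone against ERK2 KO. The 5 include Psma2 and the scarce Psma8, whose calls were lost in 12 and 6 of the 16 fits that left out 1 library. Psma1 encodes a subunit of the ring that gates the core. In ERK1 KO it ranged from 80.8 to 119.4 CPM with a median of 93.7, in ERK2 KO from 82.8 to 102.7 with a median of 100.1, and in double KO from 100.4 to 153.7 with a median of 127.1. The ranges of ERK1 KO and double KO overlap through ERK1 KO 1 (119.4) and double KO 7 (100.4). Its log2 fold change was 0.31 ± 0.08 (SE) against ERK1 KO (adjusted p = 0.0118) and 0.21 ± 0.08 against ERK2 KO (adjusted p = 0.0386), both by edgeR. The call against ERK2 KO was lost in 13 of the 21 fits that left out 1 library, with an edgeR adjusted p of up to 0.103 (without ERK2 KO 7), and that against ERK1 KO in none. Psma6 had the smallest log2 fold change of the ring against ERK1 KO in the 21 libraries, though not in the 16 or against ERK2 KO. It averaged 104.0 ± 9.22 CPM in ERK1 KO, 103.9 ± 10.7 in ERK2 KO and 114.4 ± 11.5 in double KO (SD, n = 7 each). Its log2 fold change against ERK1 KO was 0.03 ± 0.07 (SE) after TMM scaling and 0.14 with scaling by library totals, as in CPM. Psma8, the testis-specific form of Psma7, stood at 0.53 to 2.34 CPM and is near the lower limit of measurement here.

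Among the non-catalytic beta subunits Psmb2, Psmb3 and Psmb4 rose against ERK1 KO and Psmb2 against ERK2 KO. In the 16 libraries all 4 rose against ERK1 KO. Of the 21 fits that left out 1 library, the call of Psmb2 against ERK2 KO was lost in 17. Against ERK1 KO the call of Psmb4 was lost in 8 and that of Psmb2 in 3. Psmb3 averaged 94.2 ± 6.96 CPM in ERK1 KO and 120.0 ± 13.4 in double KO (SD, n = 7 each), and its log2 fold change after TMM scaling was 0.25 ± 0.07 (SE). Double KO 1, at 146.1 CPM, was the highest.

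Psmb5, which encodes the chymotrypsin-like subunit, differed most among the constitutive catalytic genes. In the 16 libraries it stood at 55.3, 51.7, 57.7, 42.6 and 49.5 CPM in ERK1 KO, at 50.7, 57.3, 63.2, 54.2 and 58.4 CPM in ERK2 KO, and between 71.6 and 105.3 CPM in double KO, so that neither single knockout overlapped the double knockout. Over all 21 libraries the groups overlapped: ERK1 KO 1, at 77.7 CPM, lay within the double KO range, and double KO 7, at 62.2 CPM, lay within the ERK2 KO range. Over 21 libraries its log2 fold change was 0.46 ± 0.11 (SE) against ERK1 KO (edgeR adjusted p = 0.00919) and 0.40 ± 0.11 against ERK2 KO (0.00791). Of the annotated exonic bases of Psmb5, 12.1% are shared with Mir686 on the same strand. Psmb7, the trypsin-like subunit, rose by 0.26 ± 0.09 against ERK1 KO (edgeR adjusted p = 0.0368) and did not pass against ERK2 KO (0.15 ± 0.09, adjusted p = 0.171). Its call over 21 libraries was lost in 10 of the 21 fits that left out 1 library (edgeR adjusted p of up to 0.0755, without ERK1 KO 7), and its call in the 16 in none. Of its annotated exonic bases 34.9% are shared with Nek6 on the opposite strand, and no source used here states that strand was used in counting. Psmb6, the caspase-like subunit, did not pass in either contrast, at 0.11 ± 0.07 and 0.05 ± 0.07.

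**Figure D2:**
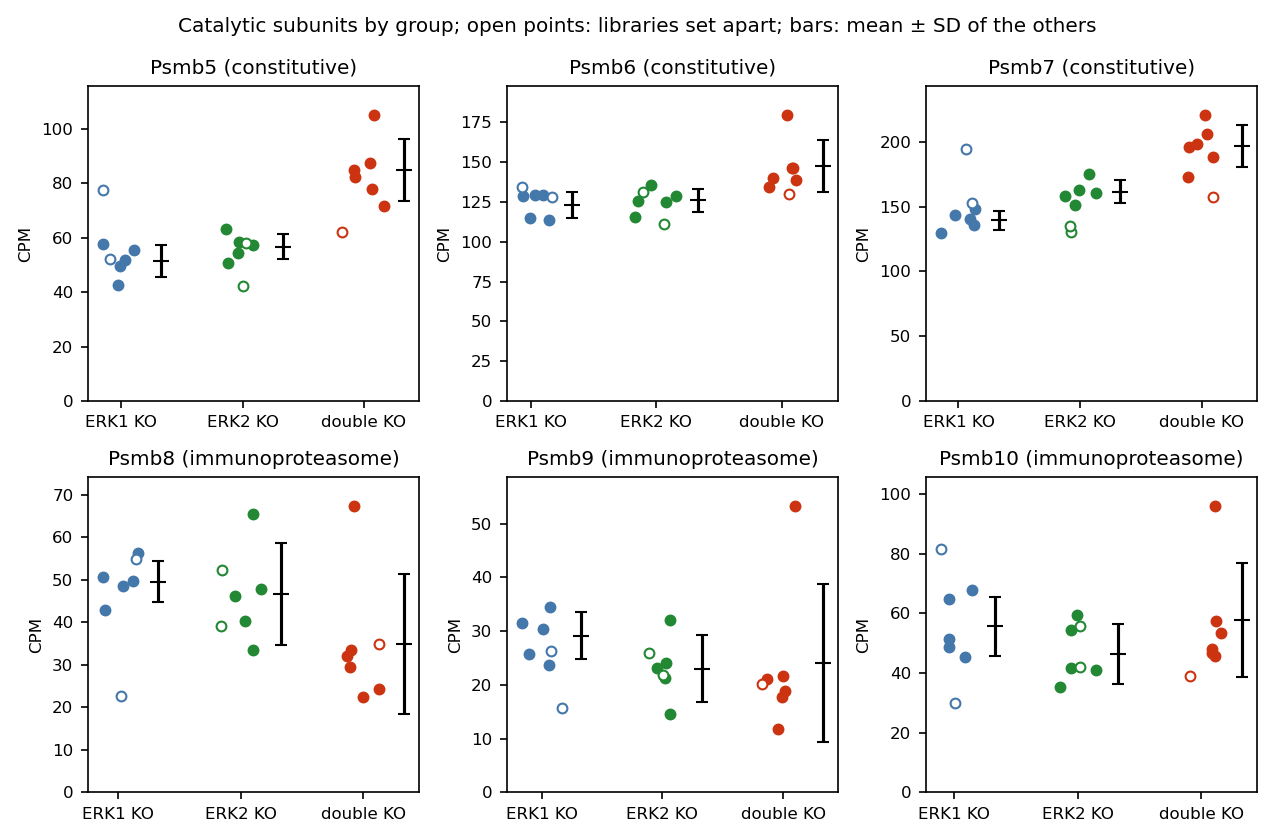
CPM of the 6 catalytic subunits in each library; filled points are the 16 libraries, open points the 5 set apart, and bars the mean ± SD of the filled points. The filled Psmb5 points of the double KO lie above those of both other groups, while the double KO points of Psmb8, Psmb9 and Psmb10 are spread by 1 high library, double KO 5.

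Of the immunoproteasome genes, Psmb8 was the one that passed, against ERK2 KO in the 21 libraries and against both in the 16. Psmb8 in the 16 libraries stood at 42.9, 49.6, 50.6, 56.2 and 48.5 CPM in ERK1 KO and at 40.2, 47.9, 65.5, 33.6 and 46.1 CPM in ERK2 KO. In double KO it stood at 29.4, 33.6, 24.4, 32.1 and 22.5 CPM in 5 libraries and at 67.3 CPM in double KO 5, the highest of all 21. Over 21 libraries the log2 fold change was -0.53 ± 0.22 (SE) against ERK1 KO, which missed the threshold (edgeR adjusted p = 0.0753), and -0.59 ± 0.22 against ERK2 KO (adjusted p = 0.0331). In the 16 libraries it fell against both, by 0.65 (adjusted p = 0.0250) and 0.64 (adjusted p = 0.0241) on the log2 scale. The 17 libraries keep ERK1 KO 1, at 22.6 CPM. There Psmb8 did not pass against ERK1 KO (-0.51, edgeR adjusted p = 0.116) and fell against ERK2 KO (-0.66, adjusted p = 0.0442). The edgeR call in the 16 was lost without double KO 3 against both (adjusted p = 0.0513 and 0.0512) and without ERK2 KO 3 against ERK2 KO (0.0624). The 21-library call against ERK2 KO was lost without any 1 of double KO 1, 2, 3, 4 or 6 or ERK2 KO 3 or 7 (up to 0.0709). With scaling by library totals it passed in neither contrast, at -0.41 (adjusted p = 0.162) and -0.41 (adjusted p = 0.129) over 21 libraries. Of the annotated exonic bases of Psmb8, 11.4% are shared with Gm20496 on the opposite strand.

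Psmb9 and Psmb10 passed in no contrast in the 21 or the 16 libraries. Psmb9 ranged from 15.7 to 34.6 CPM in ERK1 KO, from 14.6 to 32.1 in ERK2 KO and from 11.8 to 53.3 in double KO, and 15.7% of its exonic bases are shared with Tap1 on the opposite strand. Psmb10 ranged from 29.9 to 81.6 CPM in ERK1 KO, from 35.2 to 59.5 in ERK2 KO and from 38.9 to 96.0 in double KO. Double KO 5 was the highest library of its group for all 3 genes. Without it the log2 fold changes of Psmb8 were -0.75 against ERK1 KO and -0.80 against ERK2 KO, and those of Psmb9 -0.62 and -0.48. It is named here for its high values of these genes, so the lower values without it follow from that choice and are given with no test.

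In its group, double KO 5 also had the highest sum of macrophage, Kupffer and dendritic cell markers (2386 CPM, others 225.1 to 1456). Its leukocyte markers were highest too (61.5 CPM, others 12.1 to 40.0). So were its interferon response and class I presentation genes (6701 CPM, others 3699 to 5683). High marker sums and high immunoproteasome genes went together in some libraries and not in others. Within its group, ERK2 KO 3 had the highest macrophage (641.6 CPM) and interferon (4494 CPM) sums. It also had the highest Psmb8 (65.5 CPM), Psmb9 (32.1) and Psmb10 (59.5) of that group. ERK2 KO 4 had the lowest of these sums (180.7 and 3652 CPM) and of these genes (33.6, 14.55 and 35.2 CPM). ERK1 KO 1 had the highest macrophage (1121 CPM) and interferon (5280 CPM) sums of its group. Yet its Psmb8 (22.6 CPM), Psmb9 (15.7) and Psmb10 (29.9) were the lowest of that group. Double KO 4, next to double KO 5 in macrophage markers (1456 CPM), had 32.1 CPM of Psmb8. Across the 16 libraries the macrophage markers summed to 236.0 to 992.1 CPM in ERK1 KO, 180.7 to 641.6 in ERK2 KO and 757.0 to 2386 in double KO, and 5 of 11 rose against ERK1 KO in the 21 libraries and 10 of 11 against ERK2 KO. Hepatocyte markers summed to 85300 to 115000 CPM in ERK1 KO, 59630 to 78920 in ERK2 KO and 23550 to 34000 in double KO. Of the leukocyte markers, 0 of 10 passed against ERK1 KO and 2 of 10 rose against ERK2 KO, and of the hepatocyte markers 4 and 7 of 10 fell and none rose, in the 21 libraries. The part of these cell types in the proteasome results was not tested, and in whole liver fewer cells of a type and less RNA per cell cannot be told apart. Of the 15 interferon and presentation genes tested, 1 rose (Cxcl10) and 1 fell (Tap2) against ERK1 KO, and 4 rose and 2 fell against ERK2 KO. Beside these counts and those of the markers, 12.2% of all genes rose and 11.8% fell against ERK1 KO in the 21 libraries. Against ERK2 KO 24.3% rose and 20.3% fell.

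Expressed per kilobase of exon, Psmb8 made up 34.9 ± 4.5% (SD) of the sum of Psmb8 and Psmb5 in ERK1 KO, 30.9 ± 3.9% in ERK2 KO and 18.3 ± 7.4% in double KO, in the 16 libraries. Single libraries stood between 30.0% and 42.2% in ERK1 KO and between 25.5% and 36.4% in ERK2 KO. Of the double KO libraries 5 stood between 13.1% and 20.6%, and double KO 5 at 32.3%. Psmb9 made up 12.3%, 9.67% and 8.71% of its pair with Psmb6, and Psmb10 made up 26.1%, 20.2% and 20.5% of its pair with Psmb7. These shares are descriptions of RNA and were not tested.

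**Figure D3:**
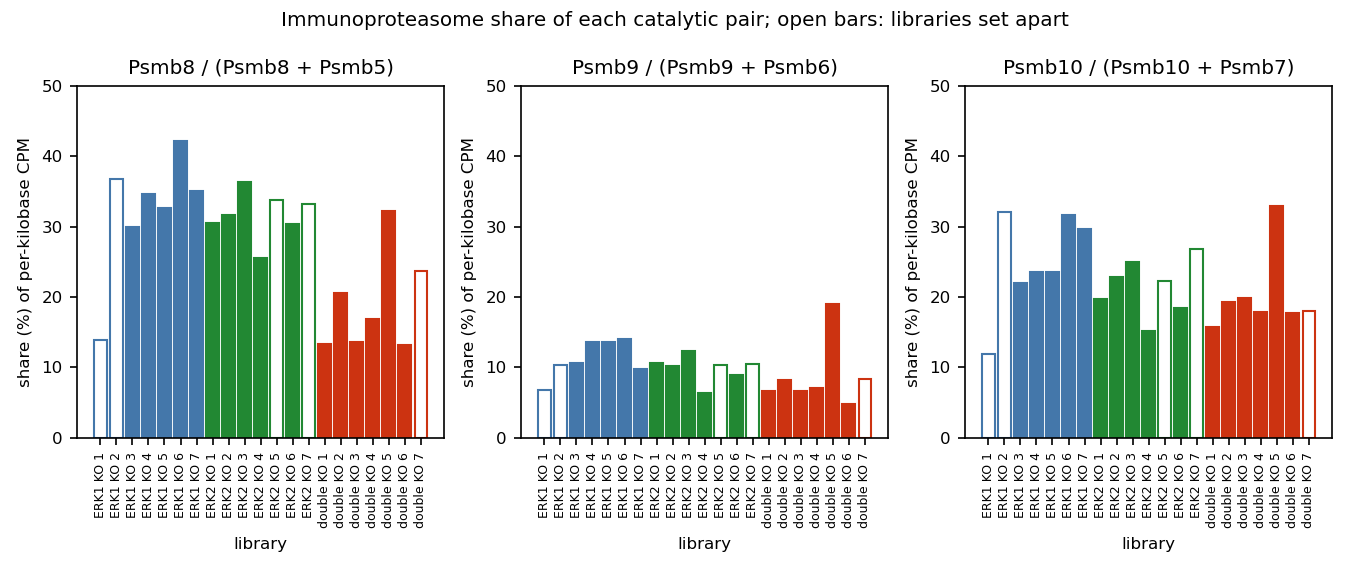
Share of per-kilobase CPM held by the immunoproteasome gene of each catalytic pair, 1 bar a library; open bars are the libraries set apart. The Psmb8 share is below 21% in 5 of the 6 filled double KO bars and reaches 32.3% in double KO 5; ERK1 KO 1, set apart, stands at 13.8%.

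Of the 6 ATPases that form the base of the 19S cap, Psmc3 and Psmc4 rose against ERK1 KO and Psmc4 against ERK2 KO. The Psmc3 call was lost in 10 of the 21 fits that left out 1 library, and its call in the 16 in none. Psmc4 in the 16 libraries ranged from 77.9 to 107.0 CPM in ERK1 KO, from 86.3 to 102.0 in ERK2 KO and from 136.9 to 163.3 in double KO, with no overlap. Over 21 libraries its log2 fold change was 0.41 ± 0.09 (SE; edgeR adjusted p = 0.00658) and 0.44 ± 0.09 (adjusted p = 0.00122). Psmc2 differed least, at 0.01 ± 0.07 against ERK1 KO. Psmc6 did not pass in the 21 libraries. Against ERK2 KO it fell in the 16 by edgeR, at -0.18 ± 0.07 (adjusted p = 0.0380), and with scaling of the 16 by library totals it stood at 0.025 (adjusted p = 0.780). The call in the 16 was lost without any 1 of double KO 2, 4 or 5 or ERK2 KO 2 or 4 (up to 0.0805).

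Psmd8, which encodes the lid subunit Rpn12, had the largest difference of the called genes. In the 16 libraries it stood at 99.5, 101.8, 98.6, 94.8 and 102.5 CPM in ERK1 KO and at 105.1, 102.1, 112.9, 111.6 and 102.5 CPM in ERK2 KO. In double KO it stood at 176.7, 180.7, 244.3, 268.9, 306.6 and 251.7 CPM, above every library of both single knockouts. Of the libraries set apart, ERK1 KO 1 stood within the double KO range, at 219.3 CPM. The library labelled double KO 7 stood at 121.8 CPM, below the other double KO libraries and above every single-knockout library of the 16. Over 21 libraries the log2 fold change was 0.82 ± 0.17 (SE; edgeR adjusted p = 0.00593) against ERK1 KO and 0.91 ± 0.17 (adjusted p = 0.000818) against ERK2 KO, and it was 1.13 and 0.95 in the 16 libraries. Per kilobase in the 16 libraries, Psmd8 averaged 45.1 CPM in ERK1 KO, 48.5 in ERK2 KO and 108.1 in double KO. Psmd6 averaged 54.9, 59.3 and 62.7 in the same libraries. It was the non-ATPase subunit with the smallest difference from ERK1 KO in the 21 libraries.

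Of the other non-ATPase subunits, Psmd1, Psmd2, Psmd11, Psmd13 and Psmd14 rose against ERK1 KO, by 0.23 to 0.35 on the log2 scale, and Psmd11, Psmd13 and Psmd14 against ERK2 KO. In the 21 fits that left out 1 library, the Psmd1 call against ERK1 KO was lost in 15. Those of Psmd2 and Psmd11 were each lost in 8, that of Psmd13 in 5 and that of Psmd14 in none. Against ERK2 KO the calls of Psmd11 and Psmd14 were each lost in 5 and that of Psmd13 in none. In the 16 libraries all of these genes rose against ERK1 KO. Psmd11 and Psmd14 did not pass there against ERK2 KO (edgeR adjusted p = 0.099 and 0.116). Psmd14 encodes the deubiquitinase of the lid, which removes ubiquitin chains from substrates, and Psmd2 a scaffold and ubiquitin receptor of the base. The assembly chaperones Psmd5, Psmd9 and Psmd10, which help the base to form, passed in no contrast in either library set. Psmd9 ranged from 30.9 to 53.3 CPM in double KO, with double KO 4, 5 and 6 at 49.1 to 53.3 and the other 4 libraries at 30.9 to 37.6.

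**Figure D4:**
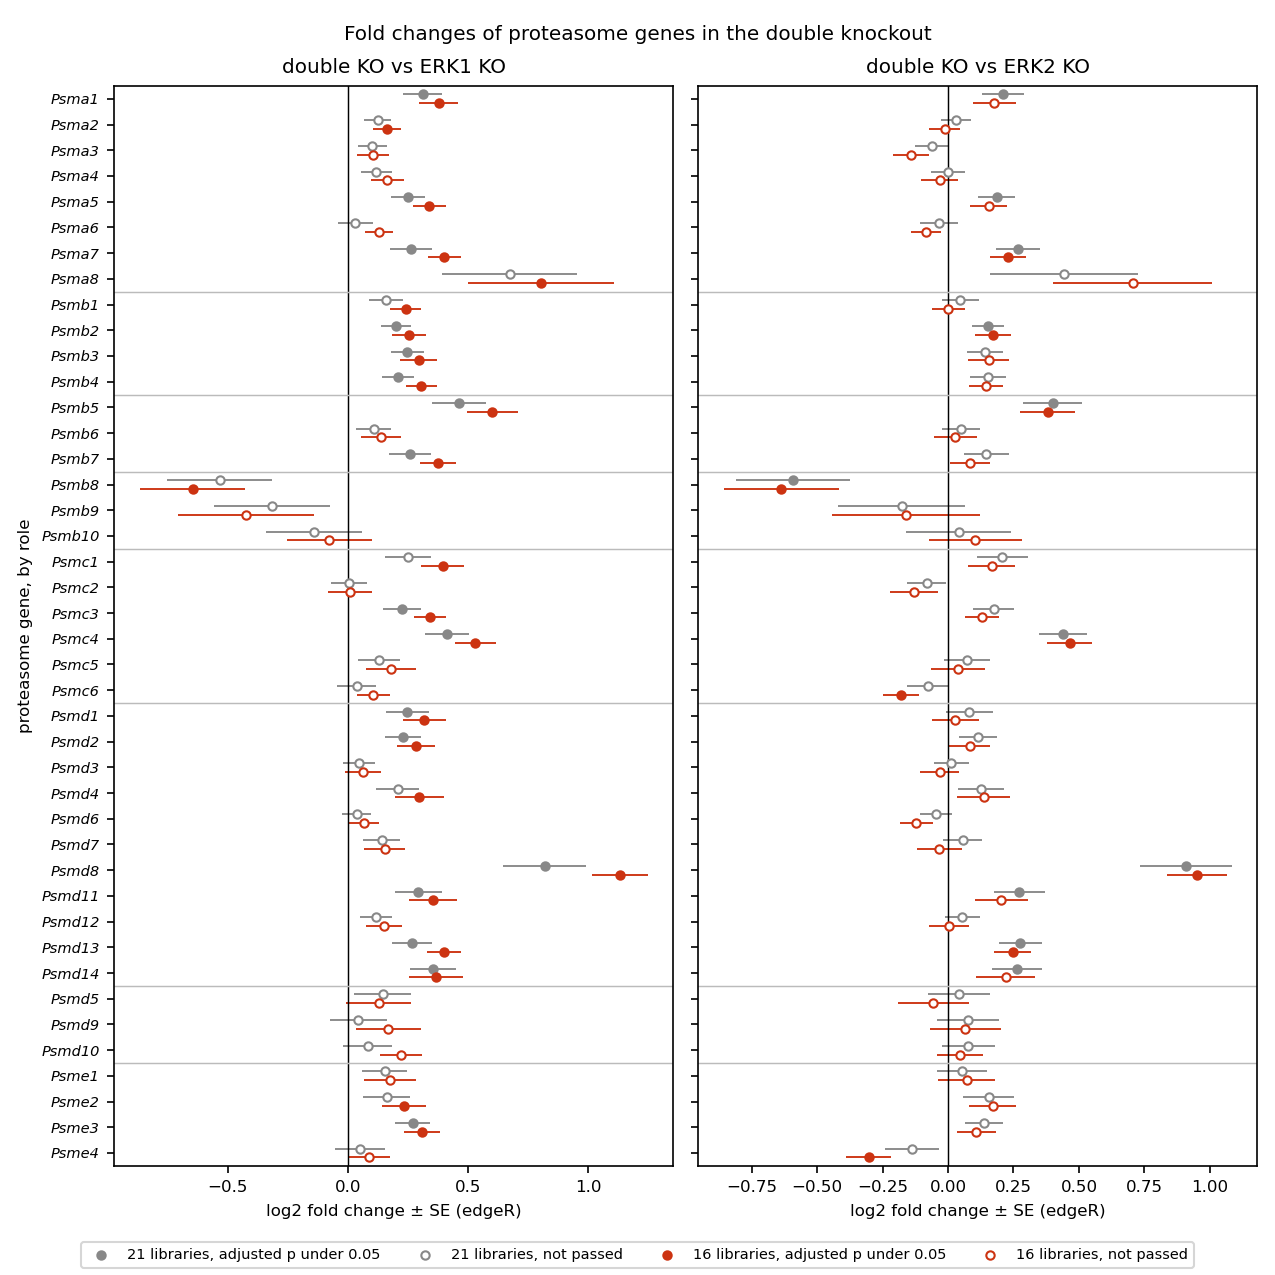
Log2 fold change ± SE of each proteasome gene in double KO against ERK1 KO (left) and ERK2 KO (right), by edgeR, in all 21 libraries (grey) and the 16 (red); filled points passed an adjusted p of 0.05. Psmd8 lies farthest to the right among the filled points and Psmb8 farthest to the left.

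Among the activators, which open the core without the 19S cap, Psme3 rose against ERK1 KO by 0.27 ± 0.07 (SE; edgeR adjusted p = 0.0138) and did not pass against ERK2 KO. Psme1 and Psme2 encode the interferon-inducible PA28 alpha and beta. Psme1 did not pass in either contrast, at 0.15 ± 0.10 and 0.05 ± 0.10. Psme2 stood at 0.16 ± 0.10 and 0.16 ± 0.10 and did not pass in the 21 libraries. It rose against ERK1 KO in the 16 (0.23, edgeR adjusted p = 0.0445) and the 17 (0.24, adjusted p = 0.0399), and the first call was lost in 11 of the 16 fits that left out 1 library (up to 0.111, without ERK1 KO 3). Its near-identical copy Psme2b is a separate row, so its reads may be split. Psme4, which encodes PA200, fell against ERK2 KO in the 16 libraries by 0.30 (adjusted p = 0.00816), with 137.4, 137.3, 144.9, 178.1 and 144.9 CPM in ERK2 KO and 125.4 to 171.1 CPM in double KO, and did not pass in the 21 (-0.14, adjusted p = 0.290) or in the 16 scaled by totals (-0.099, adjusted p = 0.359).

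Genes that build or regulate the proteasome were read from lists of genes that are not members. Beside the counts below, 12.2% of all genes rose and 11.8% fell against ERK1 KO in the 21 libraries, and 24.3% and 20.3% against ERK2 KO. In the 16 libraries these shares were 22.9% and 23.0% against ERK1 KO, and 26.1% and 25.1% against ERK2 KO. Of 9 assembly factors, cofactors and inhibitors tested, Pomp and Psmg1, which assist assembly of the core, rose and Psmf1, an inhibitor of the core, fell against both single knockouts, in the 21 and in the 16 libraries. Against ERK1 KO over 21 libraries Pomp stood at 0.26 ± 0.08, Psmg1 at 0.28 ± 0.07 and Psmf1 at -0.23 ± 0.08 (SE). Of 14 ubiquitin, E1, shuttle and p97 genes, 1 rose against ERK1 KO (Nploc4), and 2 rose and 1 fell against ERK2 KO. Of NRF1, NRF2 and their partners, 0 of 7 passed against ERK1 KO, and 3 rose and 1 fell against ERK2 KO. Nfe2l1 did not pass, at -0.07 ± 0.11 (edgeR adjusted p = 0.645) and -0.14 ± 0.11 (adjusted p = 0.282). Nfe2l2 stood at 0.39 ± 0.14 against ERK1 KO (adjusted p = 0.0508) and rose by 0.55 ± 0.14 against ERK2 KO (adjusted p = 0.00471), and in the 16 libraries it rose against both. Of 16 NRF2 target genes tested, 13 rose against ERK1 KO and none fell, and 14 rose and 1 fell (Gclc) against ERK2 KO. Hmox1, which degrades haem, stood at 14.1 to 28.8 CPM in ERK1 KO, 9.62 to 23.3 in ERK2 KO and 101.9 to 440.3 in double KO in the 16 libraries, and at 170.3 CPM in ERK1 KO 1 and 12.8 in double KO 7.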

How the data were processed

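Whole-liver RNA libraries were prepared with a NEBNext Ultra RNA kit and sequenced in pairs on a NovaSeq, per the labels' protocols. The authors deposited 1 table of raw read counts per gene symbol, with 21 library columns, all of them used (0 unused). Per the submitters' processing notes, STAR and HTSeq were among the tools, beside FastQC and Trimmomatic for reads and edgeR and DESeq2 for counts; the notes list GRCm38 and mm10 as builds. Versions, annotation and strand setting: not given in the sources used here.

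CPM was computed on deposited totals. Counts were tested with edgeR 4.0.16 (limma 3.58.1, R 4.3.3): TMM scaling, filterByExpr, quasi-likelihood F tests in 1 fit of all 21 libraries with a mean per group, and Benjamini-Hochberg adjustment over 14154 genes (14261 in the 16 libraries), called at 0.05. SE is the absolute log2 fold change divided by the square root of F. The procedure was tested on simulated data. Alternatives were DESeq2 1.42.0, scaling by totals, no filter, 2-group fits, 16 or 17 libraries and leaving out each library. Exon lengths and overlaps came from GENCODE M21, promoters from RefSeq.

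The members and lists were chosen with earlier results of these data known. Values in full are given for the catalytic subunits, the activators and, in each other group, the members with the smallest and the largest p against ERK1 KO; other members named were called or chosen after their values were seen. Of markers of other liver cells, 3 endothelial markers fell against ERK1 KO, and 2 stellate and 1 cholangiocyte markers rose. The lists were Pecam1, Kdr, Stab2, Lyve1, Clec4g and Cdh5 (endothelial), Lrat, Reln, Des, Pdgfrb, Col1a1 and Rgs5 (stellate), and Krt7, Krt19, Epcam, Sox9, Spp1 and Cftr (cholangiocyte). In the 21 libraries 12.2% of all genes rose and 11.8% fell against ERK1 KO, so counts from such short lists are no result about a cell type.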

Additional observations from a re-analysis of the deposited data

Results flagged for a closer look

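In 60 groups of 7 libraries, 1 for each gene given in full and each genotype, the highest or lowest library was compared with the rest by Dixon's test, and 12 groups had a library far from the others. Chance alone flags about 1 in 20 groups. ERK1 KO 1 stood far above its group for Psmb5 (77.74 CPM), Psmb7 (194.8), Psmb1 (167.1) and Psmd8 (219.3), and far below it for Psmb8 (22.59). Double KO 5 was far above its group for Psmb8 (67.31), Psmb9 (53.25) and Psmb10 (95.98). Double KO 1 was far above for Psmb6 (179.8) and Psmb3 (146.1). Double KO 7, whose Mapk3 goes against its label, was far below for Psmc4 (98.62), and ERK2 KO 5, whose Mapk3 does too, was far below for Psmb1 (116.4).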

How the results depend on the processing

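Alternatives with DESeq2 on the 16 libraries and leaving out each of the 16, and TMM-scaled CPM for overlaps, were chosen after seeing the data. For members higher against ERK1 KO (17), scaling by totals gave 27, the 16 libraries with that scaling 35, DESeq2 on the 16 gave 26 and the 2-group fit 5; the 16 libraries and DESeq2 on them gave 1 lower against 0. Against ERK2 KO (10 higher, 1 lower), scaling by totals gave 28 and 0, with the 16 libraries 27 and 0, no filter 6 higher, the 16 libraries 6 and 3, 17 libraries 4 and 3, and DESeq2 on the 16 gave 3 lower. ERK2 KO against ERK1 KO gave 6 higher with DESeq2 on the 16. Scaling the 16 by totals moved the median log2 fold change of all genes in double KO. It stood at 0.13 against ERK1 KO and 0.21 against ERK2 KO. Where no share of all genes is given for a fit, its count alone is no result about the members. Leaving out each library gave 8 (without ERK1 KO 6) to 20 (without ERK1 KO 1) higher against ERK1 KO, and 19 to 23 in the 16, with 0 to 2 lower; 5 (without double KO 3) to 11 higher against ERK2 KO, and 5 to 8 in the 16, with 0 to 2 and 2 to 5 lower; and 0 to 1 between the single knockouts. Of the 17 calls, 8 were never lost in these fits, and 19 of the 24 in the 16 libraries. Reversed signs among the genes given in full were of genes not called in the 21 libraries, though Psme4 was called in the 16; other genes that reversed are not all listed. Against ERK1 KO, Psmb10 was 0.035 in 17 libraries and 0.057 in the 16 scaled by totals. Against ERK2 KO, scaling by totals gave Psmb9 0.015, Psme4 0.03, Psma6 0.14, Psmc2 0.089 and Psmd6 0.13 (also Psma3 0.11 and Psmc6 0.095), and in the 16 Psmb9 0.063, Psma6 0.12, Psmc2 0.071 and Psmd6 0.081. Psmb1 was -0.024 in 17 libraries, and Psmd5 -0.057, -0.082 and -0.050 in the 16, the 17 and DESeq2 on the 16. Leaving out 1 library reversed some values: against ERK1 KO the fits spanned -0.074 to 0.051 for Psmc2 and -0.013 to 0.25 for Psmd9, and against ERK2 KO -0.039 to 0.065 for Psmb1, -0.041 to 0.080 for Psmb6, -0.12 to 0.17 for Psmb10, -0.17 to 0.10 for Psmd5, -0.017 to 0.15 for Psmd9 and -0.0064 to 0.10 for Psme1. The cause was not tested. No paired analysis was possible because the labels give no shared replicate numbers.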
